A study of Mus musculus with 2 samples.

Results

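The mitosis genes described here are 40 genes that encode the cyclins, kinases, kinesins, kinetochore proteins and degradation factors of cell division. They were taken by gene symbol, and all 40 were found among the 31253 genes of the files, each under 1 Ensembl identifier (Ube2c is ENSMUSG00000001403, Ccnb1 ENSMUSG00000041431, Ccnb2 ENSMUSG00000032218 and Smc4 ENSMUSG00000034349). Their RNA was counted as unique molecular identifiers (UMIs, 1 per captured RNA molecule) in single mouse thymocytes by droplet sequencing of 3′ ends with the 10x Genomics method. One library came from SETDBf/fCD4-Cre thymus, called cKO, and the other from wild-type thymus, called WT. Both suspensions had been enriched with anti-CD25 beads, so the shares of cell types are those of the enriched cells. CD4-Cre is a Cre transgene under the Cd4 promoter, which acts from late in the double-negative (DN) stage of thymocyte development, so cells before that stage in the cKO library are taken to be largely undeleted. The label does not say which SETDB gene is floxed, and age, sex and the number of mice are not given in the sources used here. With 1 library per genotype there was no test between genotypes, and all intervals (95%, exact) cover counting error only. They treat UMIs as independent, although many UMIs of 1 cell enter a sum together.

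A cell that has copied its DNA enters mitosis when cyclin B with the kinase Cdk1 is activated, builds a spindle with the help of the Aurora kinases, Plk1, Tpx2 and the mitotic kinesins, and attaches chromosomes to it at the kinetochores. The spindle checkpoint kinases Bub1 and Ttk delay the anaphase-promoting complex until attachment is complete, after which its activator Cdc20 and the ubiquitin-conjugating enzyme Ube2c mark cyclin B for destruction and the cell divides. RNA of most of these genes is kept low in resting cells by the DREAM complex and is raised in G2 and M phase by Mybl2 and Foxm1. In the thymus, DN cells that have rearranged the T cell receptor beta chain divide in a burst, pass through a Cd8-positive immature stage and become double-positive (DP) cells, most of which rest.

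Cells were sorted into 6 gates by marker genes that are not among the 40. Cycling cells were those with a high share of UMIs in separate S-phase and G2/M gene lists. Cycling cells without a Cd8a or Cd8b1 UMI numbered 945 in the cKO and 1090 in the WT library (cycling Cd8-negative), and those with at least 2 such UMIs numbered 640 and 601 (cycling Cd8-positive). Resting DN cells numbered 962 in the cKO and 1377 in the WT library, and resting DP cells 2880 in the cKO and 1965 in the WT library. Cells with at least 1 Foxp3 UMI, of the regulatory T cell (Treg) lineage factor, numbered 319 in the cKO and 324 in the WT library. Foxp3-negative cells with Trac, without Ptcra and with 3 or more of 11 genes of strong T cell receptor signalling, called agonist cells, numbered 462 in the cKO and 404 in the WT library. The last 2 gates hold resting and cycling cells together, whereas the DN and DP gates hold no cycling cell by construction.

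The genes that helped to set the gates describe them and do not check them. In the DN gate Il2ra was found in 90.2% of cKO and 89.4% of WT cells, in the DP gate Rag1 was found in 93.2% of cKO and 94.0% of WT cells, and in the Foxp3-positive gate the Treg marker list summed to 3902 UMIs per 1000000 UMIs of the gate (CPM) in the cKO and 4050 in the WT library. Ikzf2, a Treg factor that the Foxp3 gate did not use, was found in 84.95% of cKO and 93.2% of WT Foxp3-positive cells, but also in 87.0% of cKO and 89.3% of WT DN cells. The cKO library had 7372 kept cells with a median of 4653 UMIs, and the WT library 6989 with a median of 7700 UMIs. The libraries shared 13 cell barcodes among kept cells. Setdb1 was at 23.6 CPM in Foxp3-positive cKO cells and 20.6 in WT cells, and Setdb2 at 7.88 in cKO and 7.37 in WT cells. Tags at the 3′ end need not lie in a floxed exon, so these values do not check the genotype label.

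The promoters of the list share elements that late cell cycle genes are known for, the cell cycle genes homology region (CHR), which the DREAM and MYB-MuvB complexes bind, and the CCAAT box, bound by NF-Y. In the 250 bases before the gene start in RefSeq (mouse build GRCm38.p6), TTTGAA or TTCGAA on either strand was present in 12 of the 34 mitosis genes in the table (35.3%), against 19.6% of all 27025 genes. CCAAT on either strand was present in 25 (73.5%), against 37.5% of all genes, and 19 (55.9%) held 2 or more, against 11.5%. Both motifs were present in 11 genes (32.4%), against 7.001% of all genes. When the 50 bases after the start were added, 25 of the 34 held a CHR (73.5%), against 21.7% of all genes. The 4 promoters below belong to the genes followed in every gate that hold a CHR before their start. Each is read 5′ to 3′ on the gene's strand and ends 1 base before the start, with CHR and CCAAT letters in capitals.
Ube2c (chr2:164769679-164769928, plus strand): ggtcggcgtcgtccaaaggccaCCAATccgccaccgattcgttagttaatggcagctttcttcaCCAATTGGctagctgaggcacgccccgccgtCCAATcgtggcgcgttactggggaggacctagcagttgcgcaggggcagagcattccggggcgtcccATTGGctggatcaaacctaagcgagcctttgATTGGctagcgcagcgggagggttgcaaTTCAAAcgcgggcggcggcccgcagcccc
Cdc20 (chr4:118437344-118437593, minus strand): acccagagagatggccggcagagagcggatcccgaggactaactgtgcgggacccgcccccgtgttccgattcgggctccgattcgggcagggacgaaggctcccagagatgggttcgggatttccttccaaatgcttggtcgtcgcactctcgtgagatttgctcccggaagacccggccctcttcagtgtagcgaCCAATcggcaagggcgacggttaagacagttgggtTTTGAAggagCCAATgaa
Mki67 (chr7:135716380-135716629, minus strand): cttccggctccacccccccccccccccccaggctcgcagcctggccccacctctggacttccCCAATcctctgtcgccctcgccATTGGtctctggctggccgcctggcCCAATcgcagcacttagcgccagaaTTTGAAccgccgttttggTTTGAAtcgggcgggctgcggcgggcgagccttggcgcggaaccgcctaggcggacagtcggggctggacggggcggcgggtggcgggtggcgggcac
Top2a (chr11:99024190-99024439, minus strand): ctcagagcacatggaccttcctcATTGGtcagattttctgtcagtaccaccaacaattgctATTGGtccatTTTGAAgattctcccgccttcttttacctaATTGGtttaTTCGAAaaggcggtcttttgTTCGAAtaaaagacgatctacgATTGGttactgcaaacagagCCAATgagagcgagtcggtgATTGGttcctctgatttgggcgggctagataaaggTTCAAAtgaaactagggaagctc
Counted on both strands, Ube2c and Top2a each held 6 CCAAT matches and Cdc20 held 2. In Ube2c the count includes a pair on opposite strands that overlap in a single stretch of capitals. The CHR nearest the start lay 29 bases before it in Ube2c, 23 in Top2a and 18 in Cdc20. Mki67 held 2 CHR copies, the nearer 98 bases before the start. Ccnb1, Plk1 and Birc5 held no CHR in this window, which says only that these letters are not there. Ccna2, Tpx2, Aurkb, Kif20a, Smc4 and Dlgap5 were not matched.

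Across gates, 39 of the 40 genes were highest in cycling Cd8-positive cells in both libraries. Summed over the 40 genes, the level there was 6854 CPM in the cKO and 6574 in the WT library. In cycling Cd8-negative cells the sum was 4301 in the cKO and 4745 in the WT library. Resting cells were about an order of magnitude lower, at 685 in cKO and 691 in WT DN cells and at 653 in cKO and 707 in WT DP cells. Agonist cells, at 3576 in the cKO and 3043 in the WT library, and Foxp3-positive cells, at 1697 and 3012, lay between, as mixtures of resting and cycling cells. The order below the cycling Cd8-positive gate differed between genes, as the heat map shows. The lowest gate was DN for 22 genes in both libraries and DP for 17 in the cKO and 18 in the WT library, and Kif23 was lowest in Foxp3-positive cells of the cKO library.

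**Figure D1:**
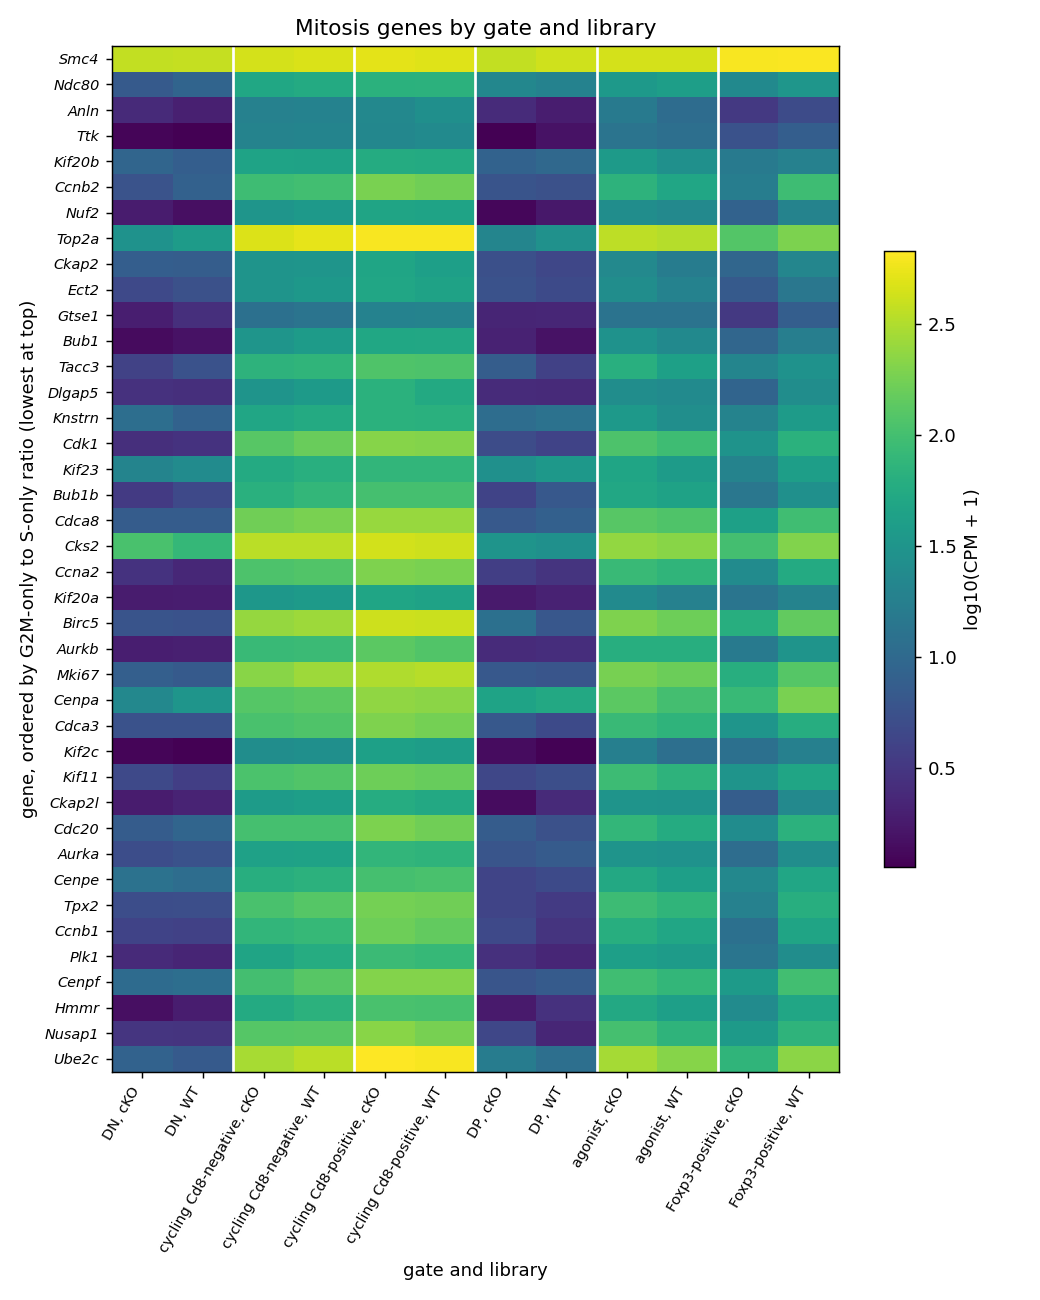
Level of each of the 40 mitosis genes (rows, log10 of CPM plus 1, colour) in each gate, with the cKO library left of the WT library. Rows are ordered by the G2M-only to S-only ratio, lowest at the top; Smc4 stays bright in every gate, and 39 of the 40 genes are brightest in cycling Cd8-positive cells.

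The level in cycling Cd8-positive cells exceeded that in cycling Cd8-negative cells for all 40 genes in both libraries. The ratio had a median of 1.65 in the cKO (range 1.10 to 2.34) and 1.37 in the WT library (1.06 to 1.86). G2/M cells, set by the separate G2/M list, made up 60.9% of cycling Cd8-positive cKO cells and 66.7% of WT cells. In cycling Cd8-negative cells the G2/M share was 44.6% in the cKO and 47.8% in the WT library. The higher level therefore went with a higher share of G2/M cells in both libraries. Whether that share accounts for it was not tested.

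Smc4, a core subunit of condensin, which compacts chromosomes, was the exception to the restriction to cycling cells. It was at 375 CPM in cKO and 386 in WT DN cells, at 373 in cKO and 426 in WT DP cells, and at 450 in cKO and 473 in WT cycling Cd8-negative cells. Its highest level was in Foxp3-positive cells, at 633 in the cKO and 650 in the WT library, where 89.3% of cKO and 92.6% of WT cells held at least 1 Smc4 UMI. Smc4 thus made up 54.7% of the summed mitosis gene UMIs in cKO and 55.8% in WT DN cells, and 57.2% in cKO and 60.3% in WT DP cells, but 7.51% in cKO and 7.61% in WT cycling Cd8-positive cells. Without it the sum in resting DN cells was 310 CPM in the cKO and 305 in the WT library. In DP cells it was 280 in the cKO and 281 in the WT library.

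A few other genes also had UMIs in resting cells. Cks2, a small subunit of cyclin-dependent kinases, was at 107 CPM in cKO and 79.3 in WT DN cells, and 47.2% of cKO and 41.0% of WT DN cells held a UMI. In DP cells Cks2 was lower, at 30.4 in the cKO and 27.3 in the WT library. With cells thinned to 2000 UMIs, a Cks2 UMI was found in 16.0% of cKO (13.8 to 18.5) and 11.8% of WT DN cells (10.2 to 13.6), and in 5.02% of cKO (4.10 to 6.08) and 4.52% of WT DP cells (3.55 to 5.67). Cenpa, the histone variant that marks centromeres, was at 45.1 in cKO and 53.3 in WT DP cells. The kinesin gene Kif23, which acts in cytokinesis, was at 27.0 in cKO and 33.0 in WT DP cells, and Ndc80, an outer kinetochore subunit that binds microtubules, at 20.7 and 18.2. Droplets also take up free RNA, and its part in these UMIs of resting cells was not tested. By contrast the checkpoint kinase gene Ttk was at 0.135 in cKO and 0.542 in WT DP cells, from 1 and 3 UMIs. The median gene of the list was at 4.25 CPM in cKO and 3.79 in WT DP cells, against 111 in cKO and 110 in WT cycling Cd8-positive cells.

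To compare the breadth of expression at equal depth, 2000 UMIs were drawn at random from every cell, and shallower cells were dropped. Cells with at least 3 mitosis gene UMIs then made up 71.7% of cycling Cd8-positive cKO cells and 80.0% of WT cells. Here 128 cKO and 52 WT cells were left out, so the deeper cells of the gate are compared. In cycling Cd8-negative cells the share was 60.9% in the cKO and 60.5% in the WT library. Of the shallower DP cells, 909 of 2880 were left out in the cKO and 395 of 1965 in the WT library. In DP cells the share was 15.3% in the cKO and 17.5% in the WT library, and without Smc4 it was 2.49% in the cKO and 2.17% in the WT library. In Foxp3-positive cells it was 28.8% in the cKO and 31.1% in the WT library with Smc4, and 4.79% and 9.84% without it.

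Along the cell cycle, cycling cells were split by whether their S-phase and G2/M list levels lay above the median. All 40 genes were higher in G2M-only cells than in S-only cells in both libraries. The bins were cut on a list of other G2/M genes, so this outcome was close to fixed in advance. It does not check the name of the list. The log2 ratio ran from 0.89 to 5.19 in the cKO and from 0.72 to 5.28 in the WT library, whereas over all genes with at least 100 UMIs the median was 0.06 in the cKO and 0.03 in the WT library. The 21 genes listed as late (mitotic) had a median of 3.14 in the cKO and 3.0 in the WT library. The 19 listed as early (S and G2) had a median of 2.12 in the cKO and 2.18 in the WT library. Of the 20 genes with the lowest ratios, 15 were early and 5 late. The lists were chosen with earlier results of these data known, so this split is no independent check of them.

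With 5 CPM added to both bins, Ube2c had the highest log2 ratio in both libraries, with 1279 CPM in G2M-only and 30.2 in S-only cells of the cKO library and 1361 and 30.1 in the WT library. Nusap1, which bundles spindle microtubules, had 320 in G2M-only and 6.41 in S-only cKO cells, and 306 and 6.95 in WT cells. Hmmr, a spindle pole protein, had 175 and 2.14 in cKO cells and 198 and 3.14 in WT cells in the same order. Cenpf, a late G2 protein of the nuclear matrix and kinetochore, had 380 and 12.3 in cKO cells and 407 and 15.1 in WT cells. Plk1, the Polo-like kinase of mitotic entry, had 141 and 4.27 in cKO cells and 155 and 4.26 in WT cells. These 5 genes were the steepest in both libraries on that scale. With nothing added, the ratio of Hmmr was wider than that of Ube2c, at 81.9 against 42.4 in the cKO and 63.2 against 45.3 in the WT library.

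At the other end Smc4 had 600 CPM in G2M-only and 322 in S-only cKO cells, against 586 and 353 in WT cells. Ndc80 had 68.2 and 20.02 in cKO cells and 70.3 and 26.6 in WT cells, and was highest in cells with both lists high, at 85.3 in the cKO and 90.3 in the WT library. Top2a, the topoisomerase that untangles replicated DNA, was the only other gene highest in that bin. Its level there was 791 in the cKO and 835 in the WT library, against 788 and 789 in G2M-only cells. Anln, a scaffold of the cytokinetic ring, had log2 ratios of 1.52 in the cKO and 1.94 in the WT library. Ttk had 1.75 in the cKO and 1.72 in the WT library, and the kinesin gene Kif20b had 1.86 and 1.94.

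The order along the cycle was close between the libraries. The absolute difference in log2 ratio between cKO and WT had a median of 0.0719 and reached at most 0.42. Within bins the summed level was 10392 CPM in the cKO and 10589 in the WT library for G2M-only cells, a ratio of 0.981 (0.973 to 0.990), and 1482 and 1545 for S-only cells, a ratio of 0.960 (0.936 to 0.984). Cells with both lists high, which held the most UMIs of the 40 genes, were on the other side, at 6224 in the cKO and 6140 in the WT library, a ratio of 1.014 (1.005 to 1.022). Cells with both lists low had a ratio of 0.896 (0.870 to 0.924), and there Cdk1, the kinase partner of cyclin B, was at 5.99 in the cKO and 12.3 in the WT library, a log2 fold of -0.66. No other mitosis gene passed 1.5-fold in any of the 4 bins. Over all genes, 0.344% were at least 1.5-fold higher and 0.428% lower in the cKO library in this bin. The shares were 0.259% higher and 0.25% lower in S-only cells, 0.25% and 0.268% in cells with both lists high, and 0.319% and 0.262% in G2M-only cells.

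**Figure D2:**
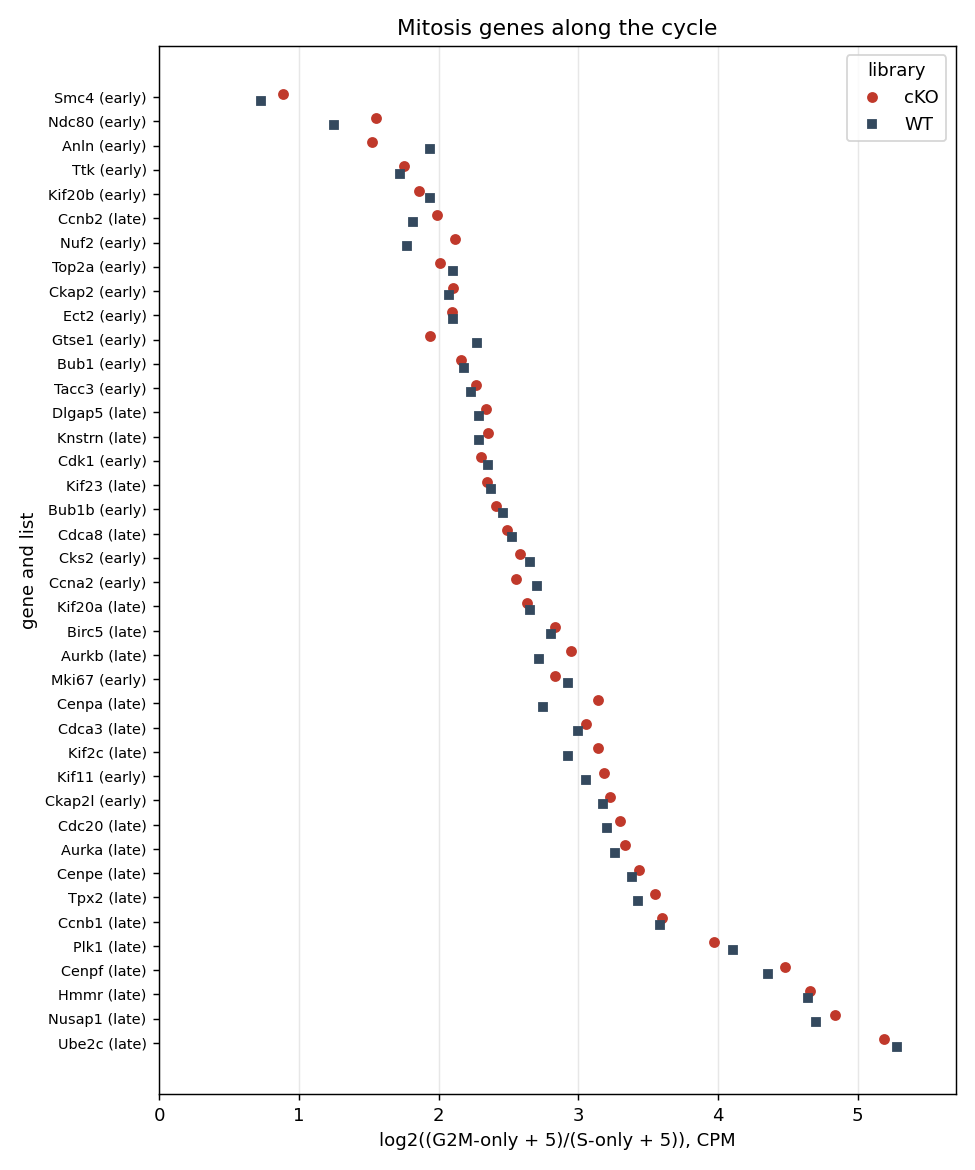
Log2 ratio of CPM (plus 5) in G2M-only over S-only cycling cells for each mitosis gene, cKO circles and WT squares, with the early or late list in brackets. All points lie above 0, and the circles and squares of a gene differ by at most 0.42.

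The comparison of cKO with WT asks how the list's RNA differs between the libraries in each gate. Cells of the DN and cycling Cd8-negative gates may come from before CD4-Cre acts, and deletion was not measured in any gate. The comparison came out differently by gate. Summed over the 40 genes, the cKO to WT ratio was 0.992 (0.959 to 1.03) in DN cells and 0.924 (0.886 to 0.964) in DP cells. It was 0.906 (0.898 to 0.914) in cycling Cd8-negative cells and 1.04 (1.03 to 1.05) in cycling Cd8-positive cells. In agonist cells it was 1.18 (1.15 to 1.20), and in Foxp3-positive cells 0.563 (0.542 to 0.586). The ratio below 1 in DP cells rested on Smc4, without which it was 0.997. The agonist ratio reversed to 0.808 when cycling cells were taken out of the gate, and the cycling Cd8-positive ratio was 0.875 when cells were averaged with equal weight. The Foxp3-positive ratio was below 1 under each of the 15 alternatives tried, but not all of these could change it. Another cycling threshold or the S-phase list alone cannot move this gate and left the ratio at 0.563. Taking cycling gates first and leaving out the cycling cells of the gate keep the same cells, at 0.922. That sum was mostly Smc4, and the late list alone was at 0.613 in these cells.

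**Figure D3:**
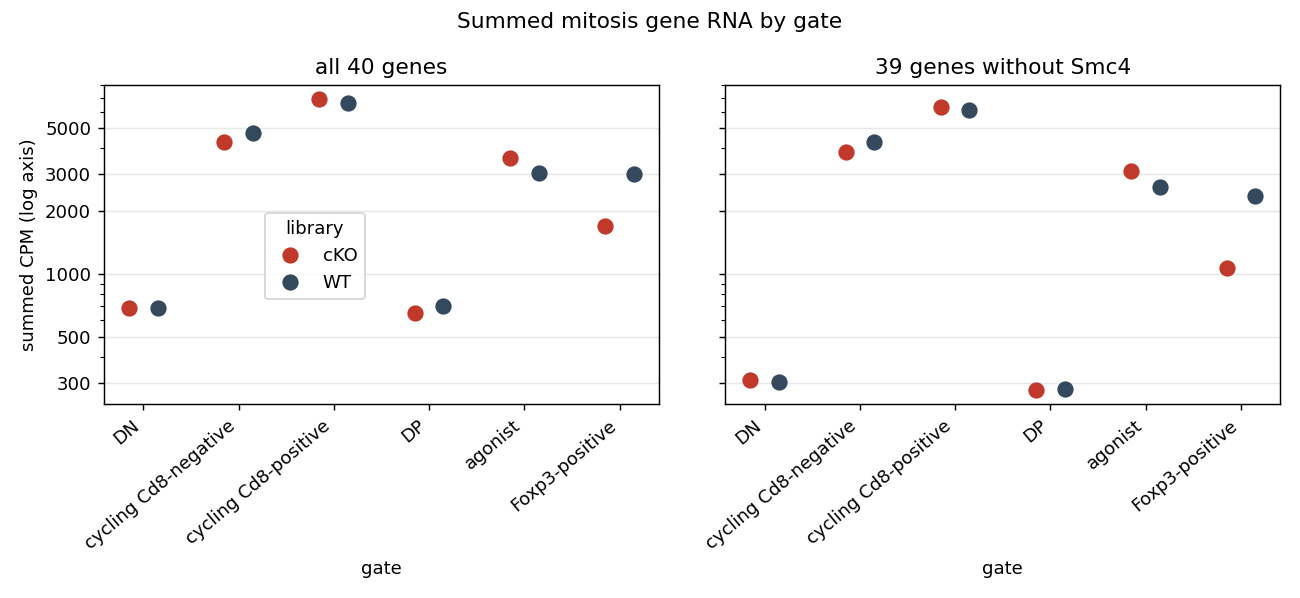
Summed CPM of the mitosis genes (log axis) in each gate, cKO left of WT, for all 40 genes and for the 39 without Smc4. In DP cells the libraries are at 280 and 281 without Smc4, and the widest gap between libraries is in Foxp3-positive cells.

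Gene by gene, folds are log2 of cKO over WT with 5 CPM added to both, for genes with at least 20 UMIs. The median over the list was 0.00 in DN cells (34 genes), 0.10 in DP cells (30 genes), -0.12 in cycling Cd8-negative, 0.06 in cycling Cd8-positive and 0.29 in agonist cells (40 genes each), and -0.91 in Foxp3-positive cells (39 genes). The median over all genes lay between -0.03 and 0.02 in the 6 gates. A difference of at least 1.5-fold, the threshold used throughout, was reached by 32 genes in Foxp3-positive cells, all lower in the cKO library, where 4.24% of all genes were that much lower and 2.47% higher. In DP cells 1 gene was at least 1.5-fold higher, against 0.483% of all genes in each direction. In the other 4 gates no gene passed it in either direction.

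**Figure D4:**
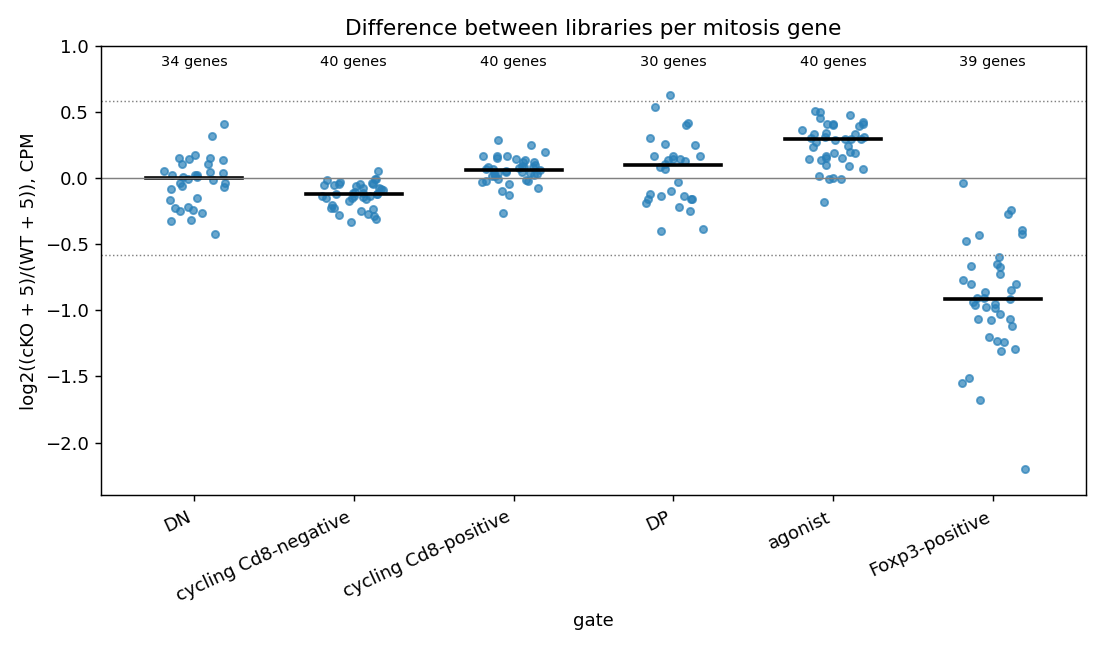
Log2 fold of each mitosis gene, cKO over WT, with 5 CPM added, in each gate; bars are medians and dotted lines mark 1.5-fold. The genes lie around 0 in DN and DP cells, mostly just below it in cycling Cd8-negative and just above it in cycling Cd8-positive cells, above it in agonist cells, and all below it in Foxp3-positive cells.

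In cycling Cd8-negative cells 39 of the 40 genes had a fold below 0, none by as much as 1.5-fold (0.223% of all genes were that much lower and 0.232% higher). The counting interval of the ratio lay wholly below 1 for 22 of the 40 genes and wholly above 1 for none, against 15.5% of all genes below 1 and 9.82% above. The differences were thus small and mostly of 1 sign. The summed ratio was 0.906 in the main setting and 0.979 (0.974 to 0.985) when gates were set on cells thinned to 2000 UMIs. The list of DN markers was higher in the cKO library in this gate, at 1229 CPM in the cKO and 1075 in the WT library. Within it Il2ra was higher, at 268 and 239, and Ptcra lower, at 78.5 and 91.9. The myeloid list, at 42.2 and 27.3, and the list of stromal and erythroid markers, at 52.6 and 38.5, were also higher. The part of these lists in the result was not tested. The lowest folds were those of Cenpf, with 101 CPM in the cKO and 128 in the WT library (log2 fold -0.33), Plk1, with 46.5 and 58.7 (-0.31), the proliferation marker Mki67, with 218 and 267 (-0.29), and Hmmr, with 55.7 and 68.8 (-0.28). At the upper end Kif20b had 45.8 in the cKO and 43.8 in the WT library (0.06), Cdc20 had 102 and 103, Cks2 had 348 and 350, and Ttk had 18.9 and 19.1.

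The other genes followed in every gate lay between. Ube2c had 290 CPM in the cKO and 344 in the WT library (log2 fold -0.25), and Top2a had 479 and 535 (-0.16). Birc5, the survivin subunit of the chromosomal passenger complex, had 243 in the cKO and 267 in the WT library (-0.13). Ccnb1, which encodes cyclin B1, had 75.8 and 80.3 (-0.08). The late list was at 2019 in the cKO and 2252 in the WT library, a ratio of 0.897 (0.885 to 0.908), and the early list at 2282 and 2493, a ratio of 0.915 (0.904 to 0.926).

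The share of G2/M cells was also lower in the cKO library. They numbered 421 of 945 in the cKO and 521 of 1090 in the WT library, a ratio of shares of 0.932 (0.818 to 1.06), an interval that spans 1. Within the G2/M cells the summed level was 6642 CPM in the cKO and 6945 in the WT library, a ratio of 0.956 (0.947 to 0.965). There 26 of 40 genes had a fold below 0, and the interval lay below 1 for 11 genes and above 1 for 3, against 11.7% of all genes below 1 and 8.03% above. Cenpf was at 166 in cKO and 198 in WT G2/M cells, Plk1 at 78.0 and 93.2 and Mki67 at 357 and 415. Cdc20, at 160 in the cKO and 149 in the WT library, was on the other side.

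In cycling Cd8-positive cells 30 of the 40 genes had a fold above 0, again none by 1.5-fold, where 0.231% of all genes were that much higher and 0.249% lower. The interval lay above 1 for 15 genes and below 1 for 2, against 9.76% of all genes in each direction. Dlgap5, a spindle assembly protein, had 66.8 CPM in the cKO and 53.6 in the WT library (log2 fold 0.29). Nusap1 had 218 and 183 (0.25), Ckap2, a spindle protein, had 47.2 and 40.6 (0.20), and Aurkb, the kinase of the chromosomal passenger complex, had 133 and 118 (0.17). These are 3 late genes and 1 early gene.

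The lowest folds in cycling Cd8-positive cells were those of Anln, with 21.3 CPM in the cKO and 26.6 in the WT library (log2 fold -0.26), Ttk, with 20.8 and 23.2 (-0.13), Mki67, with 318 and 341 (-0.10), and the kinetochore kinesin gene Cenpe, with 101 and 106 (-0.07). Cdc20 had 190 in the cKO and 169 in the WT library (0.17), and Ccnb1 had 164 and 146 (0.16). Plk1 had 86.9 and 80.9 (0.10), Ube2c had 677 and 641 (0.08), Birc5 had 420 and 401 (0.07), and Top2a had 634 and 639 (-0.01). Mki67 was thus lower in the cKO library in both cycling gates, whereas cyclin B1 and Cdc20 were higher in this one.

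Depth differed inside this gate. The median cell had 18120.5 UMIs in the cKO and 26427 in the WT library, and among cells below the G2/M threshold the median was 2462 in the cKO and 18062 in the WT library. Cells without any mitosis gene UMI made up 10.8% of the cKO and 6.49% of the WT cells of the gate. A sum weights cells by their depth and gave the ratio of 1.04, and a mean that weights cells equally gave 0.875. Within G2/M cells, whose median depth was 26804.5 in the cKO and 30677 in the WT library, the ratio of sums was 1.04 (1.03 to 1.05). The part of the shallow cells in the result was not tested beyond these values.

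The share of cycling cells differed between libraries among Cd8-positive cells. Of cells with at least 2 Cd8 UMIs, 682 of 3871 cycled in the cKO library (17.6%) and 645 of 2797 in the WT library (23.1%), a ratio of 0.764 (0.685 to 0.852). Of cells without Cd8 UMIs, 39.3% cycled in the cKO and 37.0% in the WT library, a ratio of 1.06 (0.975 to 1.16). When cells were thinned to equal depth before gating, the ratio for Cd8-positive cells was 0.969.

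In resting DN cells the folds were spread evenly, with 17 genes above 0 and 17 below. None passed 1.5-fold, where 0.474% of all genes were that much higher and 0.429% lower. Cks2 had the highest, at 107 CPM in the cKO and 79.3 in the WT library (log2 fold 0.41). Knstrn, a kinetochore adaptor, had 10.6 and 7.45 (0.32), Ube2c had 7.44 and 5.99 (0.18), and Kif20b had 8.04 and 6.72 (0.15). The lowest were Cenpa, with 21.5 in the cKO and 30.4 in the WT library (-0.42), Ccnb2, the cyclin B2 gene, with 4.80 and 7.29 (-0.33), Top2a, with 28.4 and 36.8 (-0.32), and Kif23, with 19.1 and 23.6 (-0.25).

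The remaining genes followed in every gate were low and close in DN cells. Mki67 was at 6.84 CPM in the cKO and 5.99 in the WT library, Cdc20 at 6.24 and 8.10, and Birc5 at 4.92 and 4.61. Ccnb1 was at 3.12 in the cKO and 2.91 in the WT library, and Plk1 at 1.44 and 1.21. Plk1 rested on 12 cKO and 15 WT UMIs, a ratio with an interval of 0.507 to 2.71.

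In resting DP cells Birc5 was the only gene past 1.5-fold with 5 CPM added, whereas with 1 CPM added 4 genes were higher and 1 lower. Birc5 was at 11.1 CPM in the cKO and 5.42 in the WT library, from 82 and 30 UMIs (log2 fold 0.63). It was found in 75 of 2880 cKO cells (2.60%) and 26 of 1965 WT cells (1.32%). Ube2c had 15.7 in the cKO and 10.7 in the WT library (0.40), Ndc80 had 20.7 and 18.2 (0.14), and Cks2 had 30.4 and 27.3 (0.13). Top2a was lower in the cKO library, with 19.98 in the cKO and 28.0 in the WT library (-0.40), as were Kif23, with 27.0 and 33.0 (-0.25), Cenpa, with 45.1 and 53.3 (-0.22), and Smc4, with 373 and 426 (-0.19). The genes with enough UMIs thus lay on both sides of 0 in resting DP cells.

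Low counts limit the rest of the list in DP cells. Mki67 had 5.67 CPM in the cKO and 5.06 in the WT library, Cdc20 had 6.34 and 4.51, Ccnb1 had 3.64 and 1.99, and Plk1 had 1.75 and 1.26. Ccnb1 rested on 27 cKO and 11 WT UMIs, with a ratio interval of 0.881 to 4.10. Tacc3, a spindle protein that works with Aurka, was at 6.48 in the cKO and 2.89 in the WT library from 48 and 16 UMIs, a log2 fold of 0.54; it was chosen after its value was seen. It was below the 100 UMIs asked of the genes ranked by fold.

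In agonist cells 36 of 40 genes had a fold above 0, none by 1.5-fold, where 1.16% of all genes were that much higher and 0.513% lower. The interval lay above 1 for 26 genes and below 1 for none, against 8.89% of all genes above 1 and 6.76% below. Tacc3 had 62.5 CPM in the cKO and 42.4 in the WT library (log2 fold 0.51), Nusap1 had 102 and 71.1 (0.50), the microtubule-depolymerizing kinesin gene Kif2c had 16.8 and 10.6 (0.48), and Ccnb2 had 69.3 and 49.3 (0.45). The lowest were Ndc80, with 34.9 in the cKO and 40.1 in the WT library (-0.18), Aurkb, with 61.5 and 61.9, Gtse1, a G2 microtubule protein, with 11.98 and 12.02, and Smc4, with 446 and 446.

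Markers of other cells moved with this gate. The list of 8 DP markers summed to 631 CPM in the cKO and 494 in the WT library, the list of 7 B cell markers to 481 and 306, and the list of 9 myeloid markers to 60.9 and 28.3. Their part in the result was not tested. The B cell list was higher in DN cells than in agonist cells, at 2237 in the cKO and 2218 in the WT library, so it does not mark B cells alone here.

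The genes followed in every gate were all higher in cKO agonist cells. Ube2c had 282 CPM in the cKO and 212 in the WT library (log2 fold 0.41), Cdc20 had 77.3 and 56.9 (0.41), and Ccnb1 had 61.1 and 48.7 (0.30). Birc5 had 195 and 164 (0.24), Mki67 had 182 and 159 (0.19), Plk1 had 41.3 and 36.9 (0.15), and Top2a had 359 and 335 (0.10).

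Cycling cells carried nearly all of this RNA. They numbered 106 of 462 in the cKO (22.9%) and 96 of 404 in the WT library (23.8%), and held 93.6% of the list's UMIs in cKO and 91.1% in WT agonist cells. Within them the summed level was 6145 CPM in the cKO and 4892 in the WT library, a ratio of 1.26 (1.23 to 1.28), with Kif2c and Tacc3 at least 1.5-fold higher where 3.02% of all genes were. Of the cycling agonist cells, 62 in the cKO and 54 in the WT library were at G2/M, where the level was 8247 in the cKO and 6870 in the WT library. In the agonist cells that did not cycle the level was 504 in the cKO and 624 in the WT library, a ratio of 0.808 (0.746 to 0.875). The 2 kinds of cell in the gate therefore lay on opposite sides of 1.

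The cycling agonist cells were not marked like the resting ones. Their agonist marker list summed to 849 CPM in the cKO and 782 in the WT library, against 4102 in cKO and 3795 in WT agonist cells that did not cycle. In cycling Cd8-negative cells outside the gate the same list was at 356 in the cKO and 347 in the WT library. The cycling agonist cells had a median of 22495.5 UMIs in the cKO and 28519 in the WT library, so 3 detected genes are reached at a lower level, and with all cells thinned to 2000 UMIs before gating the agonist ratio was 0.836. The part of such deep cells in the agonist result was not tested.

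Foxp3-positive cells had the widest difference. With no minimum of UMIs, all 40 genes had a fold below 0, and 32 of the 40 were at least 1.5-fold lower in the cKO library. The 19 early genes summed to 1114 CPM in the cKO and 1551 in the WT library, a ratio of 0.718 (0.682 to 0.756). The 21 late genes summed to 583 in the cKO and 1460 in the WT library, a ratio of 0.399 (0.374 to 0.426). Smc4 gave 1366 of the early UMIs in the cKO and 1675 in the WT library. Without it the 18 other early genes summed to 481 CPM in the cKO and 902 in the WT library, a ratio of 0.534 (0.496 to 0.575). The difference between the early and late lists was not tested. Some lists of markers of other cells were higher in this gate of the cKO library. The B cell list summed to 189 CPM in the cKO and 134 in the WT library, and the myeloid list to 15.8 and 5.43. The list of stromal and erythroid markers was lower, at 28.3 in the cKO and 30.3 in the WT library. The list of 9 DN markers summed to 534 in the cKO and 438 in the WT library. It holds Il2ra, which was at 316.4 in the cKO and 248.7 in the WT library. Il2ra was found in 59.6% of cKO and 60.5% of WT Foxp3-positive cells, so the DN list does not mark other cells alone here. The part of these lists in the result was not tested.

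The B-type cyclin genes differed most. Ccnb2 was at 16.2 CPM in the cKO and 92.3 in the WT library (log2 fold -2.20), from 35 and 238 UMIs, and was found in 11 of 319 cKO cells (3.45%) and 30 of 324 WT cells (9.26%). Ccnb1 was at 11.1 in the cKO and 46.6 in the WT library (-1.68), found in 2.82% of cKO and 7.41% of WT cells. Ube2c was at 72.7 and 223 (-1.55), found in 5.33% of cKO and 10.5% of WT cells. Tpx2, which targets Aurka to the spindle, was at 18.1 and 60.9 (-1.51), found in 3.45% of cKO and 8.33% of WT cells. For these 4 genes both the level and the share of cells were lower in the cKO library.

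The other genes followed in every gate had the same sign. Cdc20 had 24.6 CPM in Foxp3-positive cKO cells and 68.3 in WT cells (log2 fold -1.31), Birc5 had 60.7 and 146 (-1.20), and Mki67 had 61.1 and 124 (-0.96). Plk1 had 12.5 and 24.8 (-0.77) and Top2a had 121 and 193 (-0.65). At the upper end Smc4 had 633 in the cKO and 650 in the WT library (-0.04), Ndc80 had 22.7 and 31.4 (-0.40), Tacc3 had 19.9 and 28.3 (-0.42), and the spindle kinesin gene Kif11 had 30.1 and 48.1 (-0.60). Smc4 was thus nearly level between the libraries, whereas Cks2 and Cenpa, which also had UMIs in resting DN and DP cells, had log2 folds of -0.98 and -1.12.

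A few cells held much of the mitosis gene RNA of the Foxp3-positive gate. The 10 Foxp3-positive cells with the most mitosis gene UMIs held 54.5% of the list's UMIs in the cKO and 55.4% in the WT library. The median Foxp3-positive cell was at 878 CPM in the cKO and 894 in the WT library, whereas the 95th percentile was 2396 in the cKO and 6292 in the WT library. Cycling cells numbered 27 of 319 in the cKO (8.46%, interval 5.65 to 12.1) and 32 of 324 in the WT library (9.88%, 6.85 to 13.7). Those at the G2/M stage numbered 11 in the cKO (3.45%, 1.73 to 6.09) and 21 in the WT library (6.48%, 4.06 to 9.74), a ratio of 0.532 (0.232 to 1.15). The interval of this G2/M share ratio, which counts cells, spans 1. With cells thinned to 2000 UMIs, the ratio of shares with at least 3 mitosis gene UMIs was 0.924 (0.686 to 1.24). Without Smc4 it was 0.487 (0.244 to 0.930). The narrow interval on the summed ratio, which counts UMIs, does not reflect how few cells gave them.

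**Figure D5:**
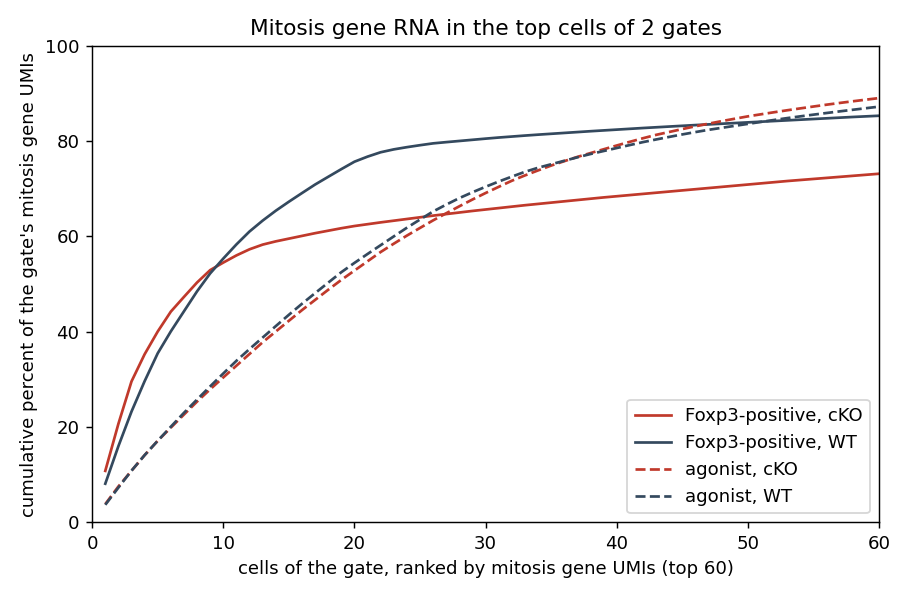
Cumulative percent of a gate's mitosis gene UMIs held by its top 60 cells, ranked by those UMIs, for Foxp3-positive (solid) and agonist (dashed) cells of the cKO and WT libraries. The top 10 Foxp3-positive cells hold 54.5% in the cKO and 55.4% in the WT library, and the solid cKO line then flattens at a lower level than the WT line.

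Within the 27 cKO and 32 WT cycling Foxp3-positive cells the list summed to 4621 CPM in the cKO and 8155 in the WT library, a ratio of 0.567 (0.540 to 0.595), and 28 of the 40 genes, counted with no minimum, were at least 1.5-fold lower, where 10.1% of all genes with at least 20 UMIs were. Ccnb2 was at 66.7 in the cKO and 292 in the WT library, Ccnb1 at 46.5 and 152, Ube2c at 301 and 728, and Cdc20 at 90.9 and 220. Top2a was closer, at 501 in the cKO and 620 in the WT library. Among cycling Foxp3-positive cells, 11 of 27 were at G2/M in the cKO and 21 of 32 in the WT library, so the lower level of late genes went with fewer G2/M cells. Within these G2/M cells the 40 genes summed to 8531 CPM in the cKO and 10400 in the WT library. The lower level and the smaller number of G2/M cells cannot be told apart with cells this few.

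These cycling cells carried Treg markers at a lower level than the rest of the gate. The Treg list summed to 2378 CPM in cKO and 2475 in WT cycling Foxp3-positive cells, against 4356 in cKO and 4697 in WT cells that did not cycle, and 524 in cKO and 513 in WT cycling Cd8-negative cells. Only 1 Foxp3 UMI was found in 14 of the 27 cKO and 9 of the 32 WT cycling cells. Ptcra, the pre-T cell receptor gene of DN cells, was found in 4 of the cKO and 3 of the WT cells, and the median doublet score was 0.0700 in the cKO and 0.122 in the WT library. With at least 2 Foxp3 UMIs required, the ratio of the list was 0.430. The part of doublets and of misgated cells was not tested further.

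In the 292 cKO and 292 WT Foxp3-positive cells that did not cycle, the list was at 827 CPM in the cKO and 897 in the WT library, a ratio of 0.922 (0.858 to 0.991). Smc4 made up most of that sum, with 1073 of 1376 UMIs in the cKO and 1113 of 1638 in the WT library. The early list, which holds Smc4, was at 723 CPM in the cKO and 727 in the WT library, a ratio of 0.995 (0.919 to 1.08). The late list was at 104 in the cKO and 170 in the WT library, from 173 and 310 UMIs, a ratio of 0.613 (0.506 to 0.740). With no minimum of UMIs, 28 of the 40 genes had a fold below 0, 9 were at least 1.5-fold lower and Tacc3, with 9 UMIs in the cKO and 3 in the WT library, was higher. Over all genes with at least 20 UMIs, 4.52% were that much lower and 3.29% higher. Mki67 had 2 UMIs in the cKO and 24 in the WT library, a ratio of 0.0915 (0.0105 to 0.369), and Ccnb2 had 2 and 19. Ube2c had 8 in the cKO and 28 in the WT library, Top2a had 14 and 32, and Cks2 had 55 and 96. Knstrn, with 13 in the cKO and 11 in the WT library, and Ndc80, with 19 and 21, were close.

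Other genes of the division pathway differed little between libraries in the cycling gates, as did the 40 genes. Of the 42 genes of the G2/M list that helped to set the gates, 35 had a fold below 0 in cycling Cd8-negative cells (summed ratio 0.921). In cycling Cd8-positive cells 32 of them had a fold above 0 (1.04). The G2/M list thus leaned the same way as the 40 genes in each gate. The S-phase list was below 1 in both, at 0.968 in cycling Cd8-negative and 0.979 in cycling Cd8-positive cells. In cycling Cd8-negative cells 0.232% of all genes were at least 1.5-fold higher and 0.223% lower, and in cycling Cd8-positive cells 0.231% and 0.249%. Against these shares, among 18 regulators of the DREAM, E2F and MuvB groups none was at least 1.5-fold apart in either gate, with a median log2 fold of 0.00 in cycling Cd8-negative and 0.02 in cycling Cd8-positive cells. Foxm1 was at 19.1 CPM in cKO and 22.8 in WT cycling Cd8-negative cells, and at 28.3 and 29.9 in cycling Cd8-positive cells. Mybl2 was at 38.2 in cKO and 43.6 in WT cycling Cd8-negative cells, and at 35.1 and 40.3 in cycling Cd8-positive cells. Both activators were slightly lower in the cKO library, with a ratio interval that spans 1 for Foxm1 in cycling Cd8-positive cells (0.822 to 1.09).

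Among the 18 genes of the anaphase-promoting complex and its partners, 1 was at least 1.5-fold apart. It was lower in cycling Cd8-negative cKO cells, where 0.223% of all genes were that much lower and 0.232% higher. Ube2s, which extends the ubiquitin chains that Ube2c starts, was at 15.2 CPM in cKO and 25.7 in WT cycling Cd8-negative cells (log2 fold -0.60), and at 26.3 and 34.7 in cycling Cd8-positive cells (-0.35). None of the 14 other spindle checkpoint genes, 12 mitotic entry and exit enzymes, 17 cohesin and condensin genes or 10 G1 cyclin and kinase genes passed 1.5-fold in either gate. The medians of these lists lay between -0.08 and 0.12.

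Of the 13 inhibitor and quiescence genes, 11 had at least 20 UMIs in each gate. Among them 1 was at least 1.5-fold apart in each gate, against 0.232% of all genes higher in cycling Cd8-negative and 0.231% in cycling Cd8-positive cells. Klf2, a factor of quiescent and emigrating T cells, was higher in the cKO library, at 27.2 CPM in cKO and 14.6 in WT cycling Cd8-negative cells (log2 fold 0.72) and at 21.6 and 12.7 in cycling Cd8-positive cells (0.59). Cdkn1a, the p21 inhibitor, was at 4.59 in cKO and 9.16 in WT cycling Cd8-positive cells (-0.56) and at 32.4 and 40.7 in cycling Cd8-negative cells (-0.29). Cdkn1b, the p27 inhibitor, was at 44.2 in cKO and 47.4 in WT cycling Cd8-negative cells and at 64.7 and 59.1 in cycling Cd8-positive cells.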

How the data were processed

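RNA was counted in single cells of 1 cKO and 1 WT library. Both deposited matrices give UMI counts, not normalized, and came from Cell Ranger 6.1.1 per the file headers. CASAVA 1.8 and Seurat 4.0.3 are named in the submitters' processing notes. No genome build is named in the sources used here, and genes were matched by symbol. No column of per-sample values was left unused.

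A barcode was kept with 500 or more genes, 1000 or more UMIs and a mitochondrial share of up to 10%. Doublets were scored with scrublet in scanpy 1.11.5, with 6% of barcodes taken to be doublets. Its own score threshold came out at 0.638 in the cKO and 0.290 in the WT library. The WT value was applied to both libraries, since the cKO value called almost no doublet. This removed 129 cKO and 148 WT barcodes. Of the rest, 564 cKO and 730 WT cells with at least 2 UMIs of a B cell marker list, or of Lyz2, Csf1r, C1qa and C1qb, were set aside as B or other cells.

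A cell was called cycling when its UMIs in 34 S-phase and 42 G2/M genes, none of them members, reached Otsu's threshold of log2(CPM + 100) over both libraries. G2/M cells were set likewise from the G2/M list among cycling cells. Foxp3-positive and agonist cells were taken before the cycling gates, and DN and DP cells after them. DN cells had no Cd4, Cd8a or Cd8b1 UMI and at least 2 UMIs summed over Ptcra, Il2ra, Notch3 and Hes1. DP cells had at least 2 Cd8 UMIs with Cd4 or Rag1.

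UMIs were summed per gate and library and divided by all UMIs of the gate (CPM). The ratio of 2 sums or shares carries an exact binomial interval, a share a Clopper-Pearson interval, and PCR copies are removed by UMI. Sums and folds were tested on simulated counts. Computations used Python 3.11.15, numpy 2.4.6, scipy 1.17.1 and pandas 2.3.3.

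The members and lists were chosen with earlier results of these data known. By the rule for naming genes, each gate has the 4 highest and 4 lowest folds among genes with at least 100 UMIs, plus Mki67, Top2a, Ccnb1, Cdc20, Plk1, Birc5 and Ube2c. The cycle bins have the 5 highest and 5 lowest ratios, and the pathway lists those at least 1.5-fold apart, plus Foxm1, Mybl2, Cdkn1a and Cdkn1b. The alternatives were other cell filters, thresholds, gate orders, scalings, depths and pseudocounts. Leaving out Smc4, leaving out the cycling cells of the last 2 gates and setting no cells aside were added after seeing the data.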

Additional observations from a re-analysis of the deposited data

Results flagged for a closer look

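The cKO to WT ratio of the summed mitosis genes lay on opposite sides of 1 in different gates, with counting intervals that exclude 1. It was 0.906 in cycling Cd8-negative, 0.924 in DP and 0.563 in Foxp3-positive cells, against 1.04 in cycling Cd8-positive and 1.18 in agonist cells. Both ratios above 1 reversed under alternatives, to 0.808 and 0.836 in agonist cells and to 0.996 and 0.875 in cycling Cd8-positive cells, and the DP ratio was 0.997 without Smc4. The Foxp3-positive ratio was 0.730 as the mean over cells. In that gate 10 cells held 54.5% of the list's UMIs in the cKO and 55.4% in the WT library. Its counting interval does not reflect this. The differences between gates were not tested, since each gate has 1 library per genotype.

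Mitosis gene RNA was also high in cells that no gate comparison used. The cells set aside as B or other had 4451 CPM in the cKO and 4444 in the WT library. Of these cells, 284 of 564 in the cKO and 431 of 730 in the WT library held Ptcra, a gene of thymocytes. Of the set-aside cells, 48.4% of the cKO and 46.7% of the WT cells cycled. They enter the values given for the alternative with no cells set aside.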

How the results depend on the processing

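Ratios are cKO over WT, and the cause of each shift was not tested unless the alternative itself defines it. In 121 of the alternative values of the main results the value stayed within the main value's counting interval, or close to it where it has none. The 121 include agonist and Foxp3-positive sums under other cycling thresholds or the S-phase list alone, which cannot change those gates. Of the 121, 17 ratios lay on the other side of 1 from a main ratio whose interval spans 1. They were 6 of the DN sum (1.01 to 1.02), 3 of the cycling share at 0 Cd8 UMIs (1.06, alternatives 0.979 to 0.989), 1 of the G2/M share in cycling Cd8-negative cells (0.932, 1.01) and 2 in cycling Cd8-positive cells (0.913, 1.03 both times). Among thinned shares they were 0.954 and 0.978 in cycling Cd8-negative, 1.11 in DN, 1.02 in DP and 1.05 in agonist cells.

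The summed ratio of cycling Cd8-negative cells (0.906) was below 1 under all 14 alternatives tried: 0.874 with the stricter cell filter, 0.979 with gates set on cells thinned to 2000 UMIs, 0.944 with the cycling threshold 1.5 times lower, 0.930 with cycling gates taken first, 0.926 scaled without mitochondrial and ribosomal protein genes, 0.923 scaled by the median ratio over genes, 0.939 as the mean over cells and 0.932 with no cells set aside. That of cycling Cd8-positive cells (1.04) reversed to 0.996 with the threshold 1.5 times lower and to 0.875 as the mean over cells, and was 1.07 with the stricter filter, 1.07 with the threshold 1.5 times higher, 1.02 thinned, 1.02 with the S-phase list alone and 1.03 with no cells set aside. The DN ratio (0.992) was 0.882 with the stricter filter and 1.39 with the S-phase list alone. The DP ratio (0.924) was 0.835 thinned, 0.879 with the lower threshold and 0.997 without Smc4.

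The agonist ratio (1.18) reversed to 0.836 thinned, to 0.808 with cycling gates first and to 0.808 without its cycling cells, 2 settings that leave the same cells. It was 1.39 with 4 agonist genes and 2 Foxp3 UMIs, 1.10 as the mean over cells, 1.21 without Smc4 and 1.12 with no cells set aside. The Foxp3-positive ratio (0.563) was 0.700 thinned, 0.922 with cycling gates first or without its cycling cells, 0.430 with 2 Foxp3 UMIs, 0.730 as the mean over cells, 0.451 without Smc4 and 0.644 with no cells set aside. Its median log2 fold (-0.91) was -1.02 with a pseudocount of 1. With that pseudocount 4 genes, not 1, were at least 1.5-fold higher in DP cells and 1, not 0, lower, and 1, not 0, was higher in agonist cells.

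The ratio of cycling shares was 0.918 thinned and 0.806 with the higher threshold over all cells (0.860), and 0.969 thinned, 0.935 with the lower and 0.640 with the higher threshold for Cd8-positive cells (0.764). The ratio of thinned shares with 3 mitosis gene UMIs was 1.31 in DN (0.962), 1.15 in DP (0.872) and 0.487 in Foxp3-positive cells (0.924) without Smc4, and 1.19 in DN, 0.880 in cycling Cd8-negative (1.01) and 0.682 in DP cells at 1000 UMIs. With 50 bases after the start added, 25 genes, not 12, held a CHR.

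No paired analysis was possible because each genotype has 1 library and the labels give no replicate numbers; leaving out replicates was likewise not possible. Low counts limit DN and DP cells, where 16 and 10 genes reached 100 UMIs, and the few cycling Foxp3-positive cells limit that gate.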
